A study of Saccharomyces cerevisiae with 10 samples.

Results

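Peaks of Swc4 whose summit lay between 2 neighbouring genes transcribed in the same direction were described in budding yeast, Saccharomyces cerevisiae. Such neighbours are called tandem genes, and the stretch between them a tandem gap, which joins the end of an upstream gene to the start of a downstream gene. A nuclear peak was a member when its summit lay in no annotated gene of any kind, between 2 protein-coding genes on the same strand of the R64 annotation, and over 100 bp from any tRNA gene. Chromatin immunoprecipitation and sequencing (ChIP-seq) used an antibody against c-Myc in cells grown in rich medium at 30 °C to mid-log phase. There were 5 groups of 2 repeats each, namely wild type, yaf9Δ (yaf9d in the labels), eaf1Δ (eaf1d) and swr1Δ (swr1d), all with SWC4-13MYC, and wild type with no tag. The 4 tagged groups share the Myc tag on SWC4, and each mutant lacks in addition YAF9, EAF1 or SWR1. Each tagged group has 1 deposited peak list that pools both repeats, so the spread between repeats is not known and genotypes were not tested against each other, and the untagged samples were not analysed here. The members numbered 72 of 625 nuclear peaks in wild type, 265 of 4522 in yaf9Δ, 188 of 2900 in eaf1Δ and 186 of 1258 in swr1Δ, which makes 711 of 9305 over the 4 lists.

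Swc4 is a subunit of both SWR1, which exchanges histone H2A for the variant H2A.Z, and NuA4, which acetylates histones H4 and H2A. Yaf9 also belongs to both complexes, Eaf1 is the scaffold on which NuA4 assembles, and Swr1 is the ATPase of the complex named after it. In yeast both complexes are known to act around the nucleosome-depleted stretch in front of transcription start sites. A tandem gap holds the terminator of its upstream gene and the promoter of its downstream gene, a divergent gap holds the promoters of both neighbours, and a convergent gap holds terminators and no promoter of its neighbours. Below, fold is the peak caller's enrichment of the summit over its own local background, and −log10 q is its significance after adjustment. Both are the authors' values and rank peaks within a list, and they are not a measure of change between lists. Intervals are exact Clopper-Pearson 95% intervals and cover counting error only.

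In all 4 lists a smaller share of tandem than of divergent gaps held a summit, and a larger share than of convergent gaps. Of 2828 tandem gaps, 72 held a wild-type summit (2.55%, interval 1.997–3.196), against 108 of 1527 divergent gaps (7.07%, 5.84–8.48) and 4 of 1513 convergent gaps (0.264%, 0.0721–0.676). In yaf9Δ it was 255 tandem gaps (9.02%, 7.99–10.1), 246 divergent gaps (16.1%) and 22 convergent gaps (1.45%). In eaf1Δ it was 184 tandem gaps (6.51%, 5.63–7.48), 172 divergent gaps (11.3%) and 19 convergent gaps (1.26%). In swr1Δ it was 186 tandem gaps (6.58%, 5.69–7.55), 180 divergent gaps (11.8%) and 13 convergent gaps (0.859%). The intervals of the 3 orientations did not overlap within any list. The mutant lists are longer than that of wild type, so that their higher shares do not by themselves show more binding. With every list cut to the length of the wild-type list, the tandem share was 3.68% in yaf9Δ, 2.23% in eaf1Δ, below wild type, and 5.20% in swr1Δ. When only folds of 2 or more were kept, it was 1.52% in wild type, 5.98% for yaf9Δ and 3.96% for eaf1Δ. A gap seldom held more than 1 summit, with 9 such tandem gaps in yaf9Δ, 4 in eaf1Δ and 0 in wild type and swr1Δ.

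**Figure D1:**
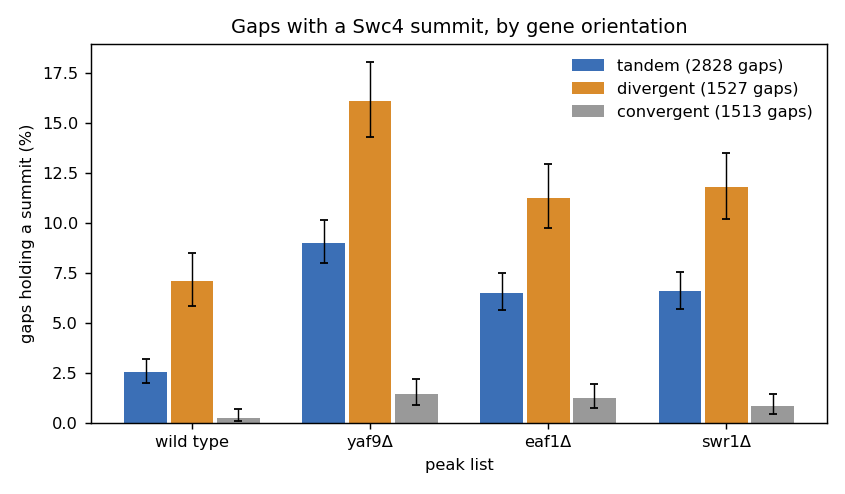
Share of gaps between neighbouring protein-coding genes that held a Swc4 summit (%, vertical axis) in each pooled peak list (horizontal axis), for tandem, divergent and convergent neighbours. Bars are shares and error bars exact 95% intervals. In each list divergent gaps were highest (7.07% in wild type), tandem gaps lower (2.55%) and convergent gaps lowest (0.264%).

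Tandem gaps made up 13.1% of nuclear base pairs and gene bodies 73.6%. Gene bodies here are those of annotated genes of any kind, with tRNA and other non-coding genes included. Members made up 11.5% of nuclear peaks in wild type (interval 9.12–14.3), 14.8% in swr1Δ (12.9–16.9), 6.48% in eaf1Δ (5.61–7.44) and 5.86% in yaf9Δ (5.19–6.59). Per 100 kb of tandem gap there were 4.54 summits in wild type, 16.7 for yaf9Δ, 11.9 for eaf1Δ and 11.7 for swr1Δ. Gene bodies held 4.77 summits per 100 kb in wild type and 9.57 in swr1Δ, and 44.4 in yaf9Δ and 28.0 in eaf1Δ. Thus tandem gaps were denser in summits than gene bodies in swr1Δ, about as dense in wild type, and less dense in yaf9Δ and eaf1Δ. Divergent gaps held 10.7, 24.7, 17.3 and 17.7 summits per 100 kb in wild type, yaf9Δ, eaf1Δ and swr1Δ. Among peaks of fold at least 2 the members' share was 22.6% in wild type, 10.6% for yaf9Δ, 10.5% for eaf1Δ and 26.3% for swr1Δ, and with lists cut to the same length it was 17.0% for yaf9Δ, 10.2% for eaf1Δ and 23.5% for swr1Δ. With the middle of the peak in place of the summit the wild-type share was 18.4%.

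Longer tandem gaps held a summit more often. Of tandem gaps of at most 250 bp, 1 of 512 held a wild-type summit (0.195%), of 251 to 500 bp 13 of 1312 (0.991%), of 501 to 1000 bp 33 of 656 (5.03%) and of over 1000 bp 25 of 348 (7.18%). In yaf9Δ the share went from 0.391% in the shortest to 27.3% in the longest class, in eaf1Δ from 0.586% to 24.1% and in swr1Δ from 0.391% to 18.4%. The median tandem gap was 401 bp long, and the median of those with a summit was 748 bp in wild type, 828 bp for yaf9Δ, 963 bp for eaf1Δ and 766 bp for swr1Δ. Divergent gaps had a median of 511 bp, so part of the comparison between orientations is one of length. In gaps of 501 to 1000 bp the intervals of tandem and divergent gaps overlapped in each list (wild type 3.49–6.99 against 5.61–10.4%, eaf1Δ 9.51–14.6 against 9.59–15.4%). Over 1000 bp they did not overlap in wild type (7.18% against 21.3%), yaf9Δ (27.3% against 44.2%) or swr1Δ (18.4% against 34.5%), and in eaf1Δ they overlapped narrowly (19.7–29.0 against 28.0–39.9%). The shortest tandem gap with a wild-type summit was PHO4–QCR6 (250 bp), in front of a gene for a subunit of the respiratory cytochrome bc complex, with a fold of 1.48.

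**Figure D2:**
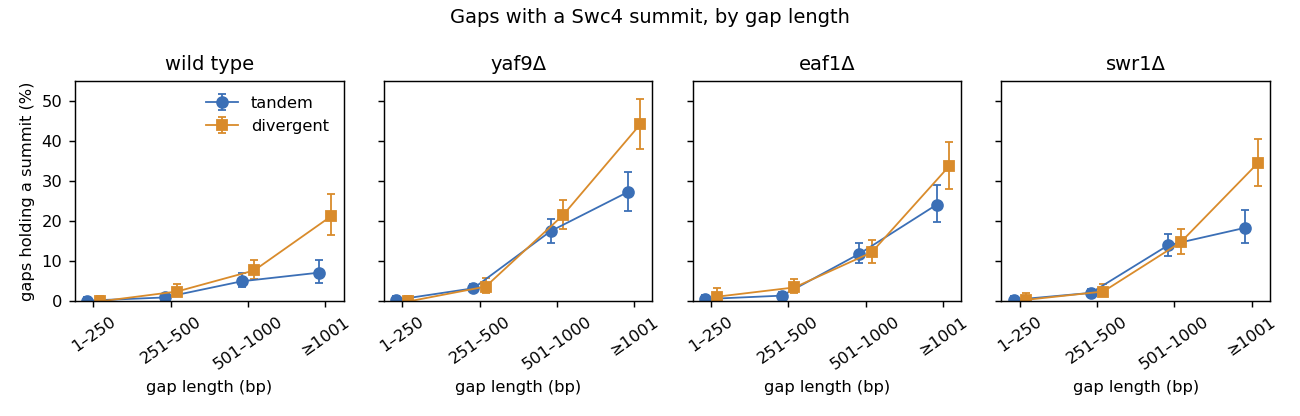
Share of tandem (circles) and divergent (squares) gaps that held a summit (%, vertical axis) by gap length in bp (horizontal axis), with 1 panel for each peak list and exact 95% intervals. In wild type the tandem share was 0.195% in the shortest and 7.18% in the longest class, where the divergent share was 21.3%.

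Peaks in tandem gaps were more frequent among the most significant peaks of each list, and so were peaks in divergent gaps. Each list was ranked by −log10 q and split into 4 parts of equal size. In wild type the most significant part held 36 members of 157 peaks (22.9%, interval 16.6–30.3), and each of the others 12 of 156 (7.69%). From the most to the least significant, the parts held 139, 52, 37 and 37 members in yaf9Δ, 77, 54, 35 and 22 in eaf1Δ, and 80, 67, 27 and 12 in swr1Δ. Among the first 100 nuclear peaks, members numbered 30 in wild type, 36 in yaf9Δ, 34 in swr1Δ and 17 in eaf1Δ, where gene bodies held 60. The median fold of members was 2.24 in wild type, 2.26 for yaf9Δ, 2.13 for eaf1Δ and 2.50 for swr1Δ. Peaks in gene bodies had lower medians in the same lists (1.56, 1.85, 1.81 and 1.51) and peaks in divergent gaps higher ones (2.45, 2.59, 2.25 and 3.15).

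Most summits lay between 100 and 500 bp in front of the downstream gene. The median distance to its annotated start, which in this annotation is mostly the start codon, was 383 bp in wild type, with quartiles of 228 and 580 bp. It was 427 bp for yaf9Δ (293–621), 435 bp for eaf1Δ (331–651) and 414 bp for swr1Δ (279–599). The median distance back to the end of the upstream gene was 395 bp in wild type, 390 bp for yaf9Δ, 423 bp for eaf1Δ and 369 bp for swr1Δ. Summits between 100 and 500 bp from the downstream start numbered 43 of 72 in wild type (59.7%, interval 47.5–71.1), 153 of 265 in yaf9Δ (57.7%), 105 of 188 in eaf1Δ (55.9%) and 119 of 186 in swr1Δ (64.0%). Within 100 bp of the start there were 2, 8, 3 and 2. In wild type, 20 of the 21 members in front of ribosomal protein genes lay at 100 to 500 bp, and 23 of the other 51 (45.1%, 31.1–59.7). For the other members the share was 53.4% in yaf9Δ, 53.4% in eaf1Δ and 58.1% in swr1Δ. What share of all tandem gap positions lies at this distance was not computed. The summit was nearer to the downstream start than to the upstream end for 40 wild-type members (55.6%, 43.4–67.3), 115 for yaf9Δ (43.4%, 37.3–49.6), 85 for eaf1Δ (45.2%, 37.96–52.62) and 82 for swr1Δ (44.1%, 36.8–51.5). Over all members, the yaf9Δ interval lay just below 50% and the other 3 held it. Which interval lay below depended on the setting, since that of yaf9Δ held 50% with fold at least 2 (38.97–54.25) and with lists of equal length (36.5–56.2), and that of eaf1Δ lay below it with lists of equal length (24.3–48.9) and without the outermost 20 kb (34.4–49.6).

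**Figure D3:**
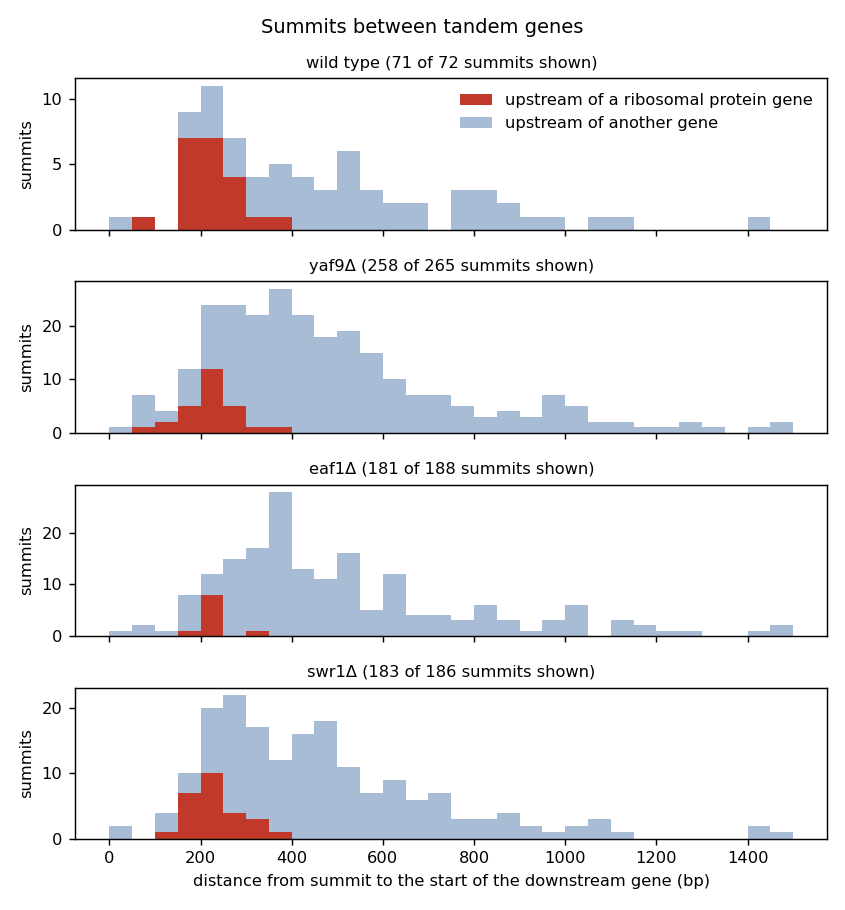
Number of summits between tandem genes (vertical axis) by distance to the start of the downstream gene in bp (horizontal axis, bins of 50 bp, the most distant summits not drawn), with 1 panel for each peak list, stacked by whether the downstream gene encodes a ribosomal protein. Those of ribosomal protein genes lay at 85 to 364 bp in every list, and the others spread over the whole range, with medians of 463 to 523 bp.

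Wild-type members of higher fold more often lay within this window, with intervals that overlapped. Of the 36 wild-type members above the median fold, 27 lay 100 to 500 bp from the downstream start (75%, interval 57.8–87.9), with a median distance of 275 bp, against 16 of the other 36 (44.4%, 27.9–61.9), with a median of 496 bp. In swr1Δ the medians were 380 bp above and 444 bp at or below the median fold, in yaf9Δ 410 and 447 bp, and in eaf1Δ 439 and 429 bp. Of the 21 wild-type members in front of ribosomal protein genes, 20 lay in the window. Their lower quartile of fold (3.23) was above the median of all wild-type members (2.24). The wild-type contrast by fold is thus not separate from that group, and it was not computed without it. The peak extended into the upstream gene for 30 wild-type members, 89 for yaf9Δ, 58 for eaf1Δ and 68 for swr1Δ, and into the downstream gene for 21, 43, 23 and 30. The intervals of the upstream and downstream shares overlapped in wild type (30.2–53.9 against 19.1–41.1%). They did not overlap in yaf9Δ (27.92–39.62 against 12–21.23%), eaf1Δ (24.33–37.98 against 7.916–17.79%) or swr1Δ (29.63–43.92 against 11.15–22.22%). In each mutant list the upstream share was the higher. For members in front of ribosomal protein genes the downstream gene was reached in 12, 15, 0 and 7 cases and the upstream gene in 8, 6, 2 and 6. Peaks that lay wholly inside the gap numbered 31, 147, 118 and 99.

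Genes for ribosomal proteins formed the largest of the groups followed here among wild-type members. A ribosomal protein gene was the downstream gene of 61 tandem gaps, and 21 of them held a summit in wild type (34.4%, interval 22.7–47.7), where 2.55% of all tandem gaps did. In yaf9Δ it was 27 (44.3%, 31.6–57.6, against 9.02% of all), in swr1Δ 26 (42.6%, 30.0–55.9, against 6.58%) and in eaf1Δ 10 (16.4%, 8.15–28.1, against 6.51%). Where a ribosomal protein gene was only the upstream gene, which held for 62 gaps, a summit lay in 1 in wild type, 7 for yaf9Δ, 1 for eaf1Δ and 1 for swr1Δ. The gaps in front of ribosomal protein genes were longer than most (median 551 bp). Among gaps of 501 to 1000 bp, 13 of 32 in front of such genes held a wild-type summit (40.6%, 23.7–59.4), against 20 of 624 in front of other genes (3.21%, 1.97–4.91). In eaf1Δ the same gaps gave 7 of 32 (21.9%, 9.28–40.0) against 71 of 624 (11.4%, 8.99–14.1), with overlapping intervals.

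The strongest wild-type member lay between FMP23 and RPS11B, a gene for a protein of the small subunit (chromosome II, 332363–332948 in the coordinates of the peak list), with a fold of 7.47 and a −log10 q of 233. Its fold was 10.5 in yaf9Δ and 9.88 in swr1Δ, it was again the strongest member of the swr1Δ list, and no part of an eaf1Δ peak touched the gap. Its summit lay 184 bp from the start of RPS11B in wild type, 165 bp in yaf9Δ and 183 bp in swr1Δ. The gap in front of RPL6A, a gene of the large subunit (chromosome XIII, 124156–125000 in wild type), followed, with folds of 5.53 in wild type, 12.7 for yaf9Δ, 2.20 for eaf1Δ and 8.02 for swr1Δ. It led the members in yaf9Δ, and its summit stayed at 225 to 235 bp from RPL6A in the 4 lists. RPS11A, the paralogue of RPS11B, had folds of 5.49, 8.70, 2.51 and 7.60 in wild type, yaf9Δ, eaf1Δ and swr1Δ (chromosome IV, 491009–491512 in wild type). It had the highest eaf1Δ fold of any ribosomal protein gap. RPL20B, RPS6A and RPL35A had wild-type folds of 5.15, 5.11 and 5.02, yaf9Δ folds of 8.50, 10.3 and 10.4, swr1Δ folds of 8.06, 7.55 and 7.53, and eaf1Δ folds of 2.39, 1.87 and 2.26. RPL31B, RPS24A, RPL16A and RPL42A had wild-type folds of 4.86, 4.82, 4.63 and 4.59, yaf9Δ folds of 9.01, 8.53, 10.04 and 9.88, and swr1Δ folds between 7.0 and 7.10. In eaf1Δ they had 2.002, 1.71 and 2.19 for the first 3, and no peak touched the gap of RPL42A. The wild-type peak between COX4 and YGL188C-A (chromosome VII, 148976–149437, fold 5.14) was not counted with this group, but the next gene beyond YGL188C-A on the same strand is RPS26A, of the small subunit. It recurred in yaf9Δ (9.06) and swr1Δ (7.11), and no eaf1Δ peak touched its gap.

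Within wild type, yaf9Δ and swr1Δ the members in front of ribosomal protein genes were stronger than the other members, and in eaf1Δ they were not. Their median fold was 4.35 in wild type against 1.85 for the other members, 7.51 against 2.16 in yaf9Δ and 6.28 against 2.32 in swr1Δ. In eaf1Δ the medians were 2.10 for the 10 in front of ribosomal protein genes and 2.13 for the other 178, and the 10 ranged from 1.71 to 2.51. The weakest in the other lists was the gap MIN10–RPL29, with folds of 1.61 in wild type, 1.81 for yaf9Δ and 1.35 for swr1Δ. All of these peaks lay close to the gene. Median distances to the start were 223 bp in wild type, 228 bp for yaf9Δ, 232 bp for eaf1Δ and 231 bp for swr1Δ, and the summit was nearer to the start than to the upstream end for 18 of 21, 24 of 27, 8 of 10 and 23 of 26. For the other members the median distances were 523, 463, 467 and 463 bp, and 22 of 51, 91 of 238, 77 of 178 and 59 of 160 were nearer to the start. For these members the interval of the share nearer to the start lay below 50% in yaf9Δ (32.0–44.7%) and swr1Δ (29.4–44.9%). It held 50% in wild type (29.35–57.75%) and eaf1Δ (35.9–50.9%).

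**Figure D4:**
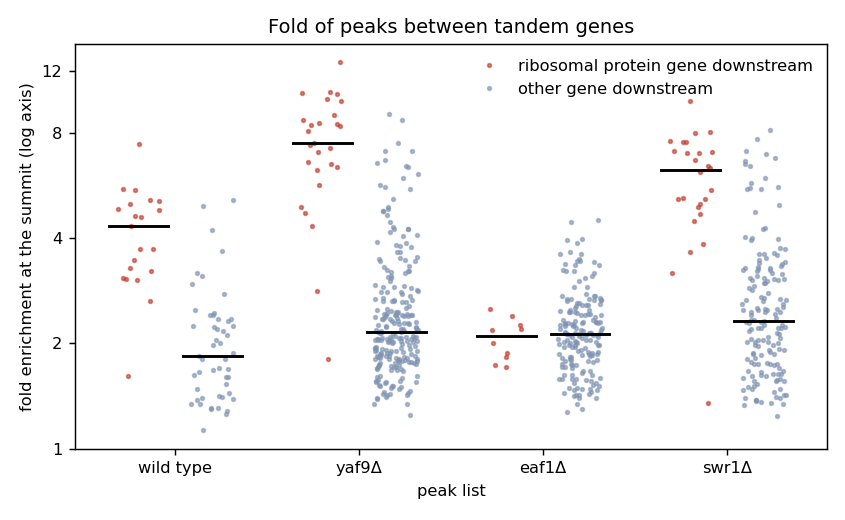
Fold enrichment at the summit (vertical axis, log scale) of each peak between tandem genes in the 4 peak lists (horizontal axis), split by whether the downstream gene encodes a ribosomal protein. Points are peaks and lines medians. The medians were 4.35 and 1.85 in wild type, 7.51 and 2.16 in yaf9Δ, 2.10 and 2.13 in eaf1Δ, and 6.28 and 2.32 in swr1Δ.

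Of the 21 ribosomal protein gaps with a wild-type summit, yaf9Δ had one in 21 (lower bound 83.9%), swr1Δ in 20 (95.2%, interval 76.2–99.9) and eaf1Δ in 10 (47.6%, 25.7–70.2). The 11 without an eaf1Δ summit were those of RPS11B, RPL42A, RPL33A, RPL2B, RPS1A, RPL34A, RPL16B, RPS7B, RPL34B, RPL26A and RPL29, and in 10 of them no part of an eaf1Δ peak lay in the gap. For the other 51 wild-type gaps the shares were 84.3% for yaf9Δ (71.4–92.98), 80.4% for eaf1Δ (66.9–90.2) and 74.5% for swr1Δ (60.4–85.7). In eaf1Δ the share was thus lower for ribosomal protein gaps than for the rest, with intervals that overlap between 66.9 and 70.2%. In yaf9Δ and swr1Δ it was higher, again with overlapping intervals. A further 6 ribosomal protein gaps had a summit in yaf9Δ and swr1Δ and none in wild type or eaf1Δ. Among them were those of RPL21A (folds 8.42 in yaf9Δ and 6.70 in swr1Δ), RPS19B (8.36 and 6.20), RPS6B (8.10 and 6.45), RPS18B (4.92 and 3.65) and RPL17A (4.32 and 3.19). In wild type a peak reached into each of these named gaps except that of RPS18B, with its summit elsewhere. In 34 of the 61 ribosomal protein gaps no list had a summit, and a peak reached into 16 of these with its summit elsewhere.

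Genes of the cell surface were another group with members in each list. Of 14 tandem gaps in front of cell wall and plasma membrane genes, 3 held a summit in wild type (21.4%, interval 4.66–50.8, against 2.55% of all tandem gaps), 6 in yaf9Δ (42.9%, 17.7–71.1, against 9.02%), and 5 in each of eaf1Δ (35.7%, 12.8–64.9, against 6.51%) and swr1Δ (against 6.58%). These gaps were longer than most (median 667 bp), and tandem gaps of 501 to 1000 bp held a summit in 5.03% of cases in wild type, 17.5% for yaf9Δ, 11.9% for eaf1Δ and 14.02% for swr1Δ, shares that the intervals held or nearly reached. The gap in front of UTH1, a gene of the SUN family, had no wild-type peak and folds of 5.96 for yaf9Δ, 3.97 for eaf1Δ and 5.61 for swr1Δ. The gap of EXG1, an exoglucanase of the cell wall, had folds of 2.33 in wild type, 4.67 for yaf9Δ, 3.61 for eaf1Δ and 4.26 for swr1Δ. SED1, a structural glycoprotein of the wall, had 2.36, 2.89, 3.18 and 3.32 in the same order. PMP3, a small membrane protein, had 1.601, 3.12, 3.42 and 2.32. Its summit lay 389 bp from the start in eaf1Δ and 217 to 228 bp from it in the other lists.

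Cyclin genes, whose products drive the cell cycle, had 7 tandem gaps, of which 2 held a summit in wild type (28.6%, 3.67–71.0), 5 for yaf9Δ (71.4%, 29.0–96.3), 2 for eaf1Δ and 4 for swr1Δ (57.1%, 18.4–90.1). These gaps were long, with a median of 1039 bp, and gaps of over 1000 bp held a summit in 7.18% of cases in wild type, 27.3% for yaf9Δ, 24.1% for eaf1Δ and 18.4% for swr1Δ. The gap of PCL1, a cyclin of the kinase Pho85, had folds of 2.50 in wild type, 6.12 for yaf9Δ, 3.07 for eaf1Δ and 5.77 for swr1Δ, with its summit at 333 or 334 bp from the start in each. CLN1, a G1 cyclin, had folds of 2.04, 4.24, 2.61 and 3.57. CLB2, a mitotic cyclin, had folds of 1.73 in yaf9Δ and 2.64 in swr1Δ, and CLN3, which acts at the entry into the cycle, 2.07 and 1.91, with no summit of either in wild type or eaf1Δ.

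Hexose transporter genes, which take up glucose and related sugars, had 9 tandem gaps and a wild-type summit in 0 of them (upper bound 33.6%). In yaf9Δ and eaf1Δ 6 of them held a summit (66.7%, 29.9–92.5) and in swr1Δ 4 (44.4%, 13.7–78.8). Their median length was 1761 bp, the longest of the groups. The share for all tandem gaps over 1000 bp was 7.18% with wild type, 27.3% with yaf9Δ, 24.1% with eaf1Δ and 18.4% with swr1Δ. The wild-type and swr1Δ intervals of the hexose transporter gaps held these shares. The lower bound of 29.9% lay above the yaf9Δ and eaf1Δ shares. Whether these genes gained summits in the mutants was not tested. HXT3, a low-affinity glucose transporter, had folds of 3.30 for yaf9Δ, 2.70 for eaf1Δ and 3.61 for swr1Δ, and a wild-type peak reached into its gap with the summit elsewhere. GAL2, the galactose permease, had folds of 1.93 in yaf9Δ and 3.02 in eaf1Δ, and HXT13 2.06 and 2.53, with no peak in either gap in wild type or swr1Δ. HXT5 had 2.19 for yaf9Δ, 2.25 for eaf1Δ and 2.88 for swr1Δ and no wild-type peak.

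Chaperone genes had 17 tandem gaps, with a summit in 0 in wild type (upper bound 19.5%), 4 for yaf9Δ (23.5%, 6.81–49.9), 2 for eaf1Δ and 2 for swr1Δ. The intervals held the shares of all tandem gaps (2.55%, 9.02%, 6.51% and 6.58%), so the counts do not stand apart from them. Among these genes BTN2, which takes part in the sorting of misfolded proteins, was among the strongest members in yaf9Δ (fold 8.69) and swr1Δ (8.14), with 2.07 in eaf1Δ. HSP42, a small heat shock protein, had folds of 6.57 in yaf9Δ and 6.525 in swr1Δ, with its summit at 238 and 235 bp from the start. SSA3, of the Hsp70 family, had 2.24 in yaf9Δ, and HSP26, another small heat shock protein, had 1.86 in yaf9Δ and 1.51 in eaf1Δ.

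The remaining groups had few members, and the interval of each of their shares held that of all tandem gaps in the same list. Glycolysis and fermentation had a summit in 0 of 12 gaps in wild type, 2 for yaf9Δ, 1 for eaf1Δ and 2 for swr1Δ. These were the hexokinase genes HXK1 (folds 2.66, 3.25 and 2.05 in the 3 mutants) and HXK2 (3.201 in yaf9Δ and 3.05 in swr1Δ). Translation factors had 1 of 17 in each of the lists but that of eaf1Δ, at TEF1, a translation elongation factor (folds 2.24, 4.08 and 3.43), and 0 in eaf1Δ. Genes of oxidative phosphorylation had 1 of 21 in wild type, yaf9Δ and swr1Δ and 2 in eaf1Δ, at QCR6 (folds 1.48 in wild type, 1.41 in eaf1Δ and 2.46 in swr1Δ) and QCR7 (1.43 in yaf9Δ and 1.49 in eaf1Δ). Ribosome biogenesis had 1 of 18 in yaf9Δ, at UTP22 (fold 3.10), and 0 in the other lists. Summits of eaf1Δ (fold 2.65) and swr1Δ (3.26) lay in the same gap, 99 bp from a tRNA gene, and were left out by the required distance. The yaf9Δ summit, at 106 bp, was kept. Genes for SWR1 and NuA4 subunits had 1 of 8 in yaf9Δ and swr1Δ, at EAF1 itself (folds 1.96 and 1.38), and 0 in wild type and eaf1Δ. None of the 10 histone genes was the downstream gene of a tandem gap.

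Other members of high fold or significance fell in none of these groups. The peak between PAU18 and YLL066C near the left end of chromosome XII (10952–11853 in wild type) had the highest −log10 q of wild-type members (343), with folds of 4.94 in wild type, 6.46 for yaf9Δ, 3.94 for eaf1Δ and 6.77 for swr1Δ. The peak between IMD2 and YHR218W near the right end of chromosome VIII had folds of 4.22, 5.52, 3.66 and 6.45. Members within 20 kb of a chromosome end numbered 6 in wild type (8.33%), 16 for yaf9Δ (6.04%), 16 for eaf1Δ (8.51%) and 12 for swr1Δ (6.45%). Of all 2828 tandem gaps, 2720 lay outside these ends. Copies of repeated sequence near the ends can share reads. GIC2, an effector of the polarity GTPase Cdc42, had folds of 3.13, 7.51, 4.51 and 7.69, and its gap was the strongest member in eaf1Δ. MOT3, a zinc finger transcription factor, had 2.45, 6.40, 4.46 and 6.67, and ERG11, a demethylase of ergosterol synthesis, had 2.20, 5.62, 3.60 and 5.58. The MOT3 summit lay 552 bp from the gene in wild type and 469 to 476 bp from it in the mutants, and that of ERG11 809 bp in wild type and 748 to 765 bp in the mutants.

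Most tandem gaps with a wild-type summit also had a summit in each mutant list. Of the 72, yaf9Δ had one in 64 (88.9%, interval 79.3–95.1), swr1Δ in 58 (80.6%, 69.5–88.9) and eaf1Δ in 51 (70.8%, 58.9–81.0), where 9.02%, 6.58% and 6.51% of all tandem gaps had one. Seen from the other side these were 25.1% of the 255 yaf9Δ gaps, 31.2% of the 186 swr1Δ gaps and 27.7% of the 184 eaf1Δ gaps. Among mutants, 158 gaps were common to yaf9Δ and swr1Δ, which is 62.0% of the yaf9Δ and 84.9% of the swr1Δ gaps. There were 150 common to yaf9Δ and eaf1Δ (58.8% and 81.5%) and 110 common to eaf1Δ and swr1Δ (59.8% and 59.1%). Summits in shared gaps lay close together. Between wild type and mutant the median separation was 9 bp for yaf9Δ, 9 bp for swr1Δ and 15 bp for eaf1Δ, and 85.9%, 87.9% and 72.5% were within 50 bp. With lists cut to the same length, by −log10 q, the wild-type gaps with an eaf1Δ summit fell to 31.9%, and those with a yaf9Δ summit to 68.1%.

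Over the 4 lists 311 of 2828 tandem gaps held a summit, of which 41 had one in all 4 lists, 82 in 3, 99 in 2 and 89 in 1. Of the 41, 10 lay in front of a ribosomal protein gene, and among the others were the gaps of GIC2, PCL1, MOT3, SED1, EXG1, ERG11, ERG25, CLN1 and GLN1, the last 2 for a cyclin and for glutamine synthetase. The longest gap among them, YLR256W-A–YLR257W (6386 bp), held a wild-type summit 6290 bp from YLR257W, a yaf9Δ summit at 6291 bp, and summits of higher fold at 360 to 372 bp in the 3 mutants, so that a shared gap need not hold the same peak. With yaf9Δ and swr1Δ but not eaf1Δ, wild type shared 15 gaps, of which 10 lay in front of ribosomal protein genes.

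**Figure D5:**
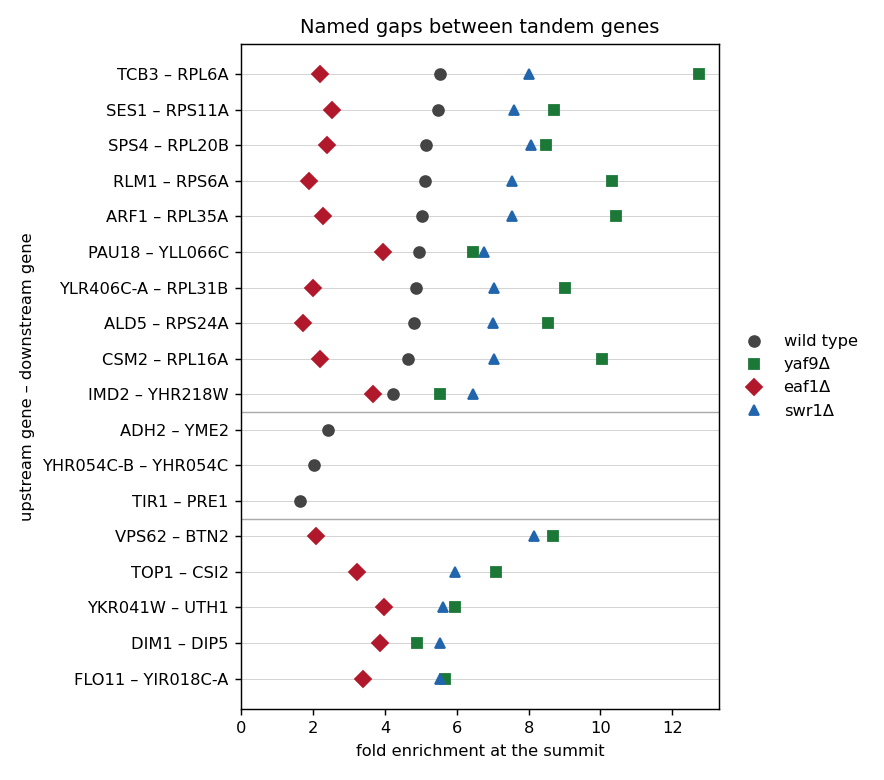
Fold enrichment at the summit (horizontal axis) of named tandem gaps (vertical axis, upstream and downstream gene) in each peak list, where a missing symbol means no summit in the gap. From the top these are the 10 gaps of highest wild-type fold with a summit in all 4 lists, the 3 with a wild-type summit and none in a mutant, and the 5 of highest swr1Δ fold with a summit in all mutants and none in wild type. Folds are taken over each list's own background. In the first set wild-type folds ran from 4.22 to 5.53 and eaf1Δ folds from 1.71 to 3.94.

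In 60 of 2828 tandem gaps all 3 mutants had a summit and wild type had none. The wild-type list is the shortest, with 625 nuclear peaks against 4522 in yaf9Δ, 2900 in eaf1Δ and 1258 in swr1Δ. Into a few of the 60, such as that of HXT3, a wild-type peak reached with its summit elsewhere. No wild-type peak touched the others. In swr1Δ the strongest of the 60 were the gaps of BTN2 (8.14), CSI2 (5.96), UTH1 (5.61), DIP5 (5.54) and YIR018C-A (5.53). DIP5, an amino acid permease, had 4.90 in yaf9Δ and 3.87 in eaf1Δ, and its summit stayed at 529 to 532 bp from the gene. YIR018C-A lies beyond FLO11, a flocculin gene whose neighbourhood is long (3870 bp), and had 5.67 in yaf9Δ and 3.38 in eaf1Δ. The gap in front of ISA1, a gene of iron-sulphur cluster assembly, had 7.11 for yaf9Δ, 3.48 for eaf1Δ and 4.97 for swr1Δ. FRA1–TPO1, in front of the polyamine transporter gene TPO1, was outside this set, with 3.45 in eaf1Δ, 2.84 in swr1Δ and a yaf9Δ peak that only touched the gap. The 60 gaps also held those of the amino acid permease gene LYP1, the ammonium permease gene MEP3 and the aconitase gene ACO1. The gap between SWR1 and MSN5 was also among them, with folds of 2.09 for yaf9Δ, 1.86 for eaf1Δ and 2.02 for swr1Δ. In yaf9Δ and swr1Δ, and not in eaf1Δ or wild type, there were 42 gaps, among them that of RPN4, a transcription factor of proteasome genes, with folds of 4.83 in yaf9Δ and 6.96 in swr1Δ.

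A wild-type summit with no mutant summit was found in 3 gaps. The gap ADH2–YME2 had a wild-type fold of 2.41, and yaf9Δ and eaf1Δ peaks reached into it with their summits elsewhere. YHR054C-B–YHR054C, next to CUP1-1, a copper metallothionein gene of a repeated array, had a fold of 2.01 and no mutant peak. TIR1–PRE1, in front of a proteasome subunit gene, was touched by a peak of each mutant and had a fold of 1.63 and its summit 113 bp from a tRNA gene, just inside the distance required. There the yaf9Δ summit lay 81 bp from the tRNA gene and was left out by that distance. The distance removed 3 summits in wild type, 8 for yaf9Δ, 5 for eaf1Δ and 7 for swr1Δ. Nearest to it on the excluded side were YBR209W–ERV15 in wild type (91 bp, fold 2.30) and yaf9Δ (94 bp, 2.87) and NNF2–UTP22 in eaf1Δ (99 bp, 2.65) and swr1Δ (99 bp, 3.26). On the included side were NNF2–UTP22 for yaf9Δ (106 bp, 3.10), IRC18–SNX4 for eaf1Δ (201 bp, 2.25) and YKL069W–YKL068W-A for swr1Δ (673 bp, 1.67).

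Some members lay at the far end of the gap, next to the upstream gene. Within 100 bp of the upstream gene's end there were 9 summits in wild type, 29 for yaf9Δ, 14 for eaf1Δ and 21 for swr1Δ. In wild type the nearest was 3 bp past the end of RPL36B, in the gap to ATG41, and it was the weakest member (fold 1.13). The yaf9Δ summit there lay at the same 3 bp (fold 1.81). That between RSO55 and YLR278C lay 6 bp past the upstream gene with a fold of 3.19. Summits could also fall on the other side of such a border, since many peaks touched a tandem gap and had their summit in a neighbouring gene or elsewhere. Such gaps, without a summit of their own, numbered 176 in wild type, 651 for yaf9Δ, 603 for eaf1Δ and 201 for swr1Δ. Gaps that also hold a non-coding gene, which are 188 of all 2828, contained 8 of the 72 wild-type members. They contained 23 of 265 for yaf9Δ, 16 of 188 for eaf1Δ and 9 of 186 for swr1Δ. Among them were snoRNA genes in the gaps of RPL33A, ERG25 and LDB16 in wild type (folds 4.35, 2.23 and 1.87).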

How the data were processed

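The data are 4 deposited peak lists, 1 for each tagged group, in which both repeats were pooled per the labels. The submitters' processing notes name fastp 0.21.0, SAMtools 1.4, BWA 0.7.15-r1140 and MACS2. Build, control and peak-calling parameters were not given in the sources used here. Read depth is unknown, and that the peak coordinates fit R64 was assumed. Fold enrichment, as deposited by the authors, sets the summit pileup against a local background. The deposited −log10 q is the authors' value at the summit (lowest value 1.31 in each list), and the deposited score was left aside.

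The assembly R64 of the RefSeq gene table was set against the peaks. It holds 6002 nuclear protein-coding genes, whose strand was read from the W or C of the locus tag, and 275 nuclear tRNA genes. Summits were taken as start plus offset, counted from 1. A gap ran between neighbouring protein-coding genes that do not overlap, and distances count to the nearest base of the annotated gene. Mitochondrial peaks (68 in yaf9Δ, 37 in eaf1Δ and 4 in swr1Δ) were left out. Where a gap held several summits, that of highest fold stands for it. Placement was tested on simulated summits. No test of significance was run, since each genotype has 1 pooled list. The 11 gene lists, the members and the alternatives were chosen with earlier results of these data known. Genes named are the 10 of highest fold in each list, the 10 of highest wild-type fold in all 4 lists, the 5 of highest fold with a wild-type summit alone, without one (per mutant), and in all mutants alone, up to 4 gaps per gene list, the longest and shortest gaps, those at the tRNA distance, and some chosen after their values were seen: ribosomal protein gaps lost or gained (1 of which is not reported here), RPL29, ERG25, GLN1, LYP1, MEP3, ACO1, MSN5, ATG41, YLR278C, LDB16 and RPL33A. Other settings tried were peaks of fold at least 2, peaks with −log10 q of at least 5, lists of equal length (625 peaks), the middle of the peak, tRNA distances of 0 and 500 bp, gaps without non-coding genes, chromosomes without the outermost 20 kb, merging of peaks under 200 bp apart, and 2 other ways to match peaks, by overlap of at least 1 bp and by summits at most 100 bp apart. Python 3.11.15, pandas 2.3.3, NumPy 2.4.6 and SciPy 1.17.1 were used. No sequences are shown, since no sequence file was used here.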

Additional observations from a re-analysis of the deposited data

How the results depend on the processing

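Of 177 values recomputed, 146 stayed within the 95% interval of the reported value. Some could not move, since the wild-type list at equal length is its own full list of 625 peaks. None of the values moved beyond the interval with tRNA distances of 0 and 500 bp, without gaps that hold a non-coding gene, without the outermost 20 kb, or with near peaks merged. At −log10 q of at least 5 the members' share of peaks rose to 19.5% in swr1Δ. At fold of at least 2 that share was 22.6% in wild type, 10.6% for yaf9Δ, 10.5% for eaf1Δ and 26.3% for swr1Δ. The share of tandem gaps with a summit there was 1.52%, 5.98%, 3.96% and 4.56% in the same order (43, 169, 112 and 129 gaps, against 72, 255, 184 and 186), and wild-type gaps with a summit were 95.3% in yaf9Δ and 53.5% in eaf1Δ. With lists of equal length the members' share was 17.0% for yaf9Δ, 10.2% for eaf1Δ and 23.5% for swr1Δ, and the share of gaps was 3.68%, 2.23% and 5.20% (104, 63 and 147 gaps). The median distance to the downstream start was then 381 bp in yaf9Δ and 506 bp in eaf1Δ, the share nearer the start 35.9% in eaf1Δ, and the wild-type gaps with a summit 68.1% in yaf9Δ and 31.9% in eaf1Δ. With the middle of the peak the members' share was 18.4% in wild type and 7.79% in eaf1Δ, that of gaps 4.07% (115 gaps) and 7.96%, and the wild-type gaps recovered were 60.9% for yaf9Δ, 47.8% for eaf1Δ and 64.3% for swr1Δ. Any overlap with the wild-type peak gave 95.8% in yaf9Δ, and summits at most 100 bp apart gave 58.3% in eaf1Δ. The cause was not tested. No paired analysis was possible because each list pools both repeats, and for the same reason no repeat could be left out. Weak peaks near the threshold of a list may be missing from another for want of depth.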
